A study of Mus musculus with 6 samples.

Results

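A set of 40 genes of protein folding and its stress responses (of 24956 gene rows in the count table) was followed in sorted microglia. They were picked by symbol as known members of these systems. Of them, 17 are cytosolic or mitochondrial chaperones with the factor that controls them, and 23 belong to the endoplasmic reticulum (ER) and its unfolded protein response. All 40 passed the filter on low counts, with 37 to 39066 reads per gene and library.

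Microglia, the resident macrophages of the brain, of 3XTg-AD mice were isolated by fluorescence-activated sorting. This mouse model of Alzheimer's disease combines human APP and MAPT transgenes, driven in neurons by the Thy1 promoter, with a mutant presenilin gene. The mice were 7 months old. The control group (3 libraries) received an isotype antibody and the treated group (3 libraries) an antibody to NK1.1, a receptor on natural killer (NK) cells that is used to deplete them; each dose was 25 µg, given at intervals of 4 days over 4 weeks. Both groups carry the transgenes, so no library shows microglia of a mouse without them. The labels do not say whether a library holds 1 animal or a pool, and p-values therefore measure the spread between libraries. The comparison asks which microglial transcripts differ after treatment against NK cells.

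Chaperones bind unfolded proteins and help them reach their shape. In the cytosol, the transcription factor HSF1 induces them when proteins unfold, for example in heat. In the ER, unfolded proteins are sensed by IRE1 (Ern1), PERK (Eif2ak3) and ATF6, which act through XBP1, ATF4 and CHOP (Ddit3) to raise chaperones, disulfide isomerases and the machinery that removes misfolded proteins. IRE1 acts by cutting the Xbp1 transcript, a change of splicing that counts per gene do not show. HSP70 transcripts are also known to rise while tissue is taken apart for sorting.

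Promoter sequences with known elements of the ER response are shown first, because the genes that carry one of them are compared further on. RefSeq promoter sequences on GRCm38.p6 were found for 32 of the 40 genes, and the 250 bases before each RefSeq start were searched on both strands. GENCODE starts Hspa5 further upstream than RefSeq, so the element shown for Hspa5 lies in an annotated exon of that gene. The ER stress response element, which is CCAAT and CCACG separated by 9 bases of any kind, was present in 7 of the 20 ER genes with a promoter (35%) and in 0 of the 12 cytosolic or mitochondrial genes, against 0.13% of all 27025 genes in the promoter table. Its first 5 letters alone, the CCAAT box, are part of it and were present in 37.5% of all genes. Each line below gives the gene strand, 5′ to 3′, with the element in capitals, and a match is a description of letters, not a shown binding site.
Hspa5 (chr2:34772020-34772048, + strand): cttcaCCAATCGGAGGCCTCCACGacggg
Hsp90b1 (chr10:86705511-86705678, - strand): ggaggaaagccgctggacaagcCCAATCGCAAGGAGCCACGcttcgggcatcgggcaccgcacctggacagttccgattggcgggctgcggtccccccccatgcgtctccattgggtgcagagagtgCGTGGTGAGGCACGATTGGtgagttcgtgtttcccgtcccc
Dnajc3 (chr14:118937802-118937870, + strand): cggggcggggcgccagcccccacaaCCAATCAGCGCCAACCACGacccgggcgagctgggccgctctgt
Canx (chr11:50325775-50325843, - strand): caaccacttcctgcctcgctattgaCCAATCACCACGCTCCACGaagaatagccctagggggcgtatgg
Calr (chr8:84847050-84847118, - strand): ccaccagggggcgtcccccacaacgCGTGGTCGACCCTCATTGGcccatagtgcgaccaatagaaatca
Pdia6 (chr12:17266466-17266534, + strand): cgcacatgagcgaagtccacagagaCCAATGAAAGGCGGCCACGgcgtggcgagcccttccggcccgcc
Creld2 (chr15:88819495-88819563, + strand): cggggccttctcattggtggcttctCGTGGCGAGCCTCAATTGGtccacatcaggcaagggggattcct

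The second form of the element, ATTGG and CCACG separated by 1 base of any kind, was present in 1 of the 32 genes searched, Herpud1, and in 0.037% of all genes, and is shown for that reason.
Herpud1 (chr8:94386352-94386412, + strand): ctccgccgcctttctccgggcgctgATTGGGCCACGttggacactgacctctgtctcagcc

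A heat shock element was searched as 3 exact units, GAA, TTC and GAA, each separated by 2 bases of any kind. It was present before the divergent genes Hspd1 and Hspe1 alone among the 32, against 0.514% of all genes. These genes encode HSP60 and HSP10, the partners of the mitochondrial folding chamber, and the element lies before the Hspe1 start. It is between the genes for the Hspd1 start at 55087932 and inside an Hspd1 exon for the other annotated start, at 55088243. Of the cytosolic or mitochondrial genes, only 12 had a promoter to search. Among these, Hspa1a, Hspa1b, Hsph1 and Dnajb1 had no exact match within the 250 bases. Whether they hold an element with other letters or further away was not tested. In the line below, the capitals mark a run in which 2 matches overlap.
Hspe1 (chr1:55088053-55088082, + strand): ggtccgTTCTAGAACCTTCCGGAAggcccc

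Library depth was 26.9 M to 36.1 M gene counts, and 14606 to 16210 genes were detected. Defining microglial markers were abundant throughout: 10 of 10 were detected in every library, and together they had 31331 to 35845 CPM in isotype and 27307 to 35979 CPM in the anti-NK1.1 group. CPM is the normalised read count relative to library size, scaled by the trimmed mean of M values (TMM). The 10 neutrophil markers were also abundant, at 73234 to 101449 CPM in the controls and 32337, 32714 and 141083 CPM in treated libraries 1, 2 and 3. Markers of NK cells summed to 83.3 to 128 CPM and 38.3 to 73.2 CPM, those of T cells to 10.2 to 19.1 and 31.1 to 36.3 CPM, those of neurons to 45.1 to 160 and 208 to 645 CPM, and those of oligodendrocytes to 295 to 405 and 770 to 900 CPM. Choroid plexus markers summed to 6630 to 24405 CPM in the controls and 22518 to 39745 CPM in the treated libraries, those of astrocytes to 183 to 248 and 254 to 382 CPM, and those of endothelial cells to 44.5 to 54.3 and 56.8 to 162 CPM. The part of these cells in the values below was not tested. The libraries also differed by transcript length. Across tested genes the rank correlation of a library's deviation with length was -0.01, 0.04 and 0.33 for the controls in order of number and -0.16, 0.26 and -0.31 for the treated libraries, which means that long transcripts took a smaller share of anti-NK1.1 libraries 1 and 3. In bulk RNA, fewer cells of a type and less RNA per cell cannot be told apart.

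None of the 40 genes passed edgeR's quasi-likelihood test over 14520 tested genes (adjusted p 0.743 to 0.996), and DESeq2 called none of them either (0.572% of all tested genes). At an unadjusted p under 0.05, 0 of the 40 genes were found, where 6.54% of all tested genes were. Of the 40 log2 changes (anti-NK1.1 against isotype), 18 lay above 0 and 22 below, where 49.1% of all tested genes lay below. With upper-quartile scaling, which moved the median of all genes to 0.10, 16 of the 40 lay below 0. The median was 0.01 over the 17 cytosolic and mitochondrial genes and -0.04 over the 23 ER genes, against 0.01 over all tested genes. The groups failed to overlap for 1 of the 40 genes, Dnajb11, where 15.3% of all tested genes had groups that did not overlap (7.73% with the treated group higher, as for Dnajb11, and 7.59% with it lower).

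Most of the 40 genes, like most tested genes, scattered more between the treated than between the control libraries. With 3 libraries per group, this difference in scatter was not tested. The SD of log2 CPM was larger in the anti-NK1.1 than in the isotype group for 28 of the 40 genes, with a median SD of 0.46 against 0.21, while it was larger for 58.6% of all tested genes. With TMM scaling, anti-NK1.1 libraries 1 and 3 both lay below the whole isotype range for 16 of the 40 genes (40%). In all 16, anti-NK1.1 library 2 did not. The same pattern, with library 2 not below, held for 12.7% of all tested genes, and 20.3% had libraries 1 and 3 below whatever library 2 did. The 16 genes were the ER genes Hspa5, Hsp90b1, Dnajc3, Calr, Canx, Pdia3, Pdia4, Sel1l, Edem1, Eif2ak3 and Atf6 and the other chaperones Hsp90aa1, Hsp90ab1, Hspa4, Hspa9 and Hspd1. Calr met the rule only narrowly, with 712.0 CPM in anti-NK1.1 library 1 against 712.7 CPM in the lowest control. In the opposite direction, libraries 1 and 3 both lay above the isotype range for 5 of the 40 genes, Sdf2l1, Dnajb9, Dnajb11, Manf and Xbp1, against 18.4% of all tested genes.

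**Figure D1:**
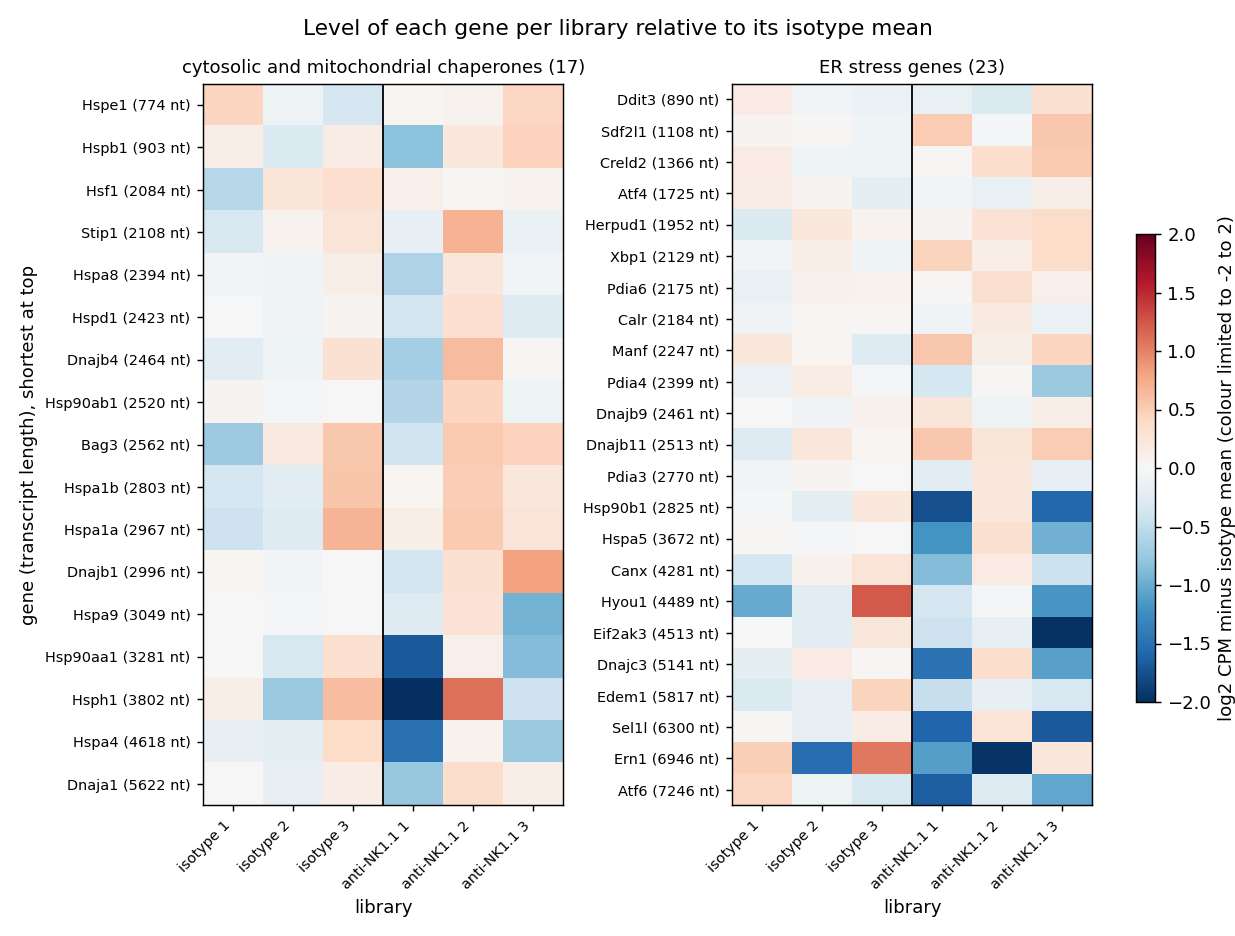
Log2 CPM of each of the 40 genes (rows, shortest transcript at the top) in each library (columns), as the difference from the mean of the 3 isotype libraries, with colour limited to -2 to 2. In anti-NK1.1 libraries 1 and 3 the lower rows of the ER panel, with long transcripts, are mostly blue, while anti-NK1.1 library 2 is mostly near or above the isotype mean, with Ern1 the clearest exception.

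The abundant cytosolic chaperones of the HSP90 family scattered more in the treated than in the control group. Hsp90aa1, the inducible HSP90 (chromosome 12, 110690605 to 110702728, GRCm38), had 352, 281 and 437 CPM in the isotype libraries and 109, 377 and 192 CPM in the anti-NK1.1 libraries. Libraries 1 and 3 of the treated group were below every control and library 2 was within the control range. Its means were 357 ± 78.0 and 226 ± 137 CPM (SD, n = 3 each), giving -0.66 ± 0.40 (SE) on the log2 scale (edgeR's quasi-likelihood test, adjusted p = 0.748). Hsp90ab1, the constitutive HSP90 (chromosome 17, 45567775 to 45573271), had 780, 734 and 746 CPM against 504, 1015 and 702 CPM, so that 1 treated library exceeded all controls and the other 2 lay under them. Its log2 change was -0.02 ± 0.26. The count ratio of Hsp90ab1 to Hsp90aa1 was 2.21, 2.61 and 1.71 in isotype and 4.62, 2.69 and 3.66 in anti-NK1.1 libraries. These ratios did not overlap, but an exact two-sided permutation test gave p = 0.1, the smallest that 3 against 3 libraries allow. Adjusted over the 4 ratios tested, p was 0.4. The transcripts have 2520 nt (Hsp90ab1) and 3281 nt (Hsp90aa1), and the counts were not corrected for length.

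The inducible HSP70 genes Hspa1a and Hspa1b lie next to each other on chromosome 17 (34969190 to 34972156 and 34956436 to 34959238) and are near-identical copies, so that the split of reads between them is uncertain. Hspa1a had 399, 448 and 852 CPM in isotype and 579, 770 and 635 CPM in the anti-NK1.1 group. Hspa1b had 545, 598 and 1021 CPM and 713, 975 and 809 CPM. Both genes were highest in isotype library 3 and next highest in anti-NK1.1 library 2, and the groups overlapped. Summed, the pair had 944, 1046 and 1872 CPM in isotype and 1292, 1744 and 1444 CPM in anti-NK1.1 libraries, with means of 1287 ± 509 and 1493 ± 230 CPM (SD, n = 3 each). The difference was 0.27 on the log2 scale (exact two-sided permutation p = 0.5). Hspa1a kept a steady share of the pair, 42.3% to 45.5% in the 6 libraries.

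A list of 20 genes known to respond to tissue dissociation, such as Fos, Egr1 and Dusp1, summed to 15810, 17665 and 15867 CPM in isotype and 11363, 12233 and 23120 CPM in the anti-NK1.1 group. Anti-NK1.1 library 3 was the highest for the list and the third for the HSP70 pair. It was also the library richest in neutrophil markers (141083 CPM). The part of dissociation, or of these cells, in the HSP70 values and in the list was not tested.

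Of the 5 HSP70 and HSP110 genes, 1, Hspa4, had both treated libraries 1 and 3 below every control. Hspa8, the constitutive HSP70 (chromosome 9, 40800984 to 40810087), had 789, 784 and 887 CPM against 536, 958 and 792 CPM, a log2 change of -0.11 ± 0.24. Hsph1, an HSP110 that recharges HSP70 (chromosome 5, 149614287 to 149636376), had 24.8, 13.5 and 34.9 CPM against 2.90, 49.0 and 17.1 CPM, the widest scatter of the 40 genes, with a 16.9-fold gap between anti-NK1.1 libraries 2 and 1. Its log2 change of -0.08 ± 0.79 had an SE far wider than itself. Hspa4, of the same family, had 51.7, 50.7 and 74.5 CPM against 20.7, 60.8 and 34.8 CPM, a log2 change of -0.60 ± 0.39.

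The J-domain proteins hand unfolded clients to HSP70. Dnajb1 (chromosome 8, 83608193 to 83612653) had 383, 362 and 378 CPM in isotype and 286, 464 and 655 CPM in the anti-NK1.1 group. The controls were close to each other, whereas treated libraries stood on both sides of them, and the log2 change was 0.32 ± 0.29. Dnaja1 (-0.02 ± 0.30) and Dnajb4 (0.07 ± 0.37) were also higher in anti-NK1.1 library 2 than in every control and lower in library 1 than in every control. Dnaja1 shares 608 exon bases with Smu1 on the opposite strand, and since the library kit does not mark strand, those reads cannot be told apart.

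Co-chaperones and the small heat shock protein gave changes near 0 with TMM scaling, although single treated libraries lay outside the control range. Bag3, which links HSP70 to autophagy, had a log2 change of 0.16 ± 0.38. Stip1, which joins HSP70 to HSP90, had 0.17 ± 0.30, with library 2 (141 CPM) above every control. Hspb1, also called HSP27, had 0.03 ± 0.36. Its values were 39.1, 29.6 and 39.5 CPM against 20.2, 41.4 and 49.2 CPM, on both sides of the controls. With the length and GC correction given further on, its change was -0.50 ± 0.47. Hsf1, which encodes the heat shock factor itself (chromosome 15, 76477422 to 76501913), had 22.8, 40.1 and 43.2 CPM against 36.6, 34.5 and 36.0 CPM. The treated libraries lay inside the control range, with a log2 change of 0.01 ± 0.32. HSF1 is activated as a protein, which transcript levels do not show.

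The mitochondrial chaperones gave small changes, although treated libraries of Hspd1 and Hspa9 stood on both sides of the controls. Hspd1 (chromosome 1, 55077835 to 55088243), with a transcript of 2423 nt, had 60.9, 57.5 and 62.9 CPM against 47.0, 76.4 and 50.3 CPM. Hspe1 (chromosome 1, 55088132 to 55091307), with 774 nt and the same heat shock element shown above, had 146, 100 and 85.6 CPM against 110, 114 and 144 CPM. The Hspe1 to Hspd1 count ratio was 2.39, 1.74 and 1.36 in isotype and 2.34, 1.49 and 2.87 in anti-NK1.1 libraries, so that the ratio varied within both groups (exact two-sided permutation p = 0.5, adjusted 0.5). Hspa9, the mitochondrial HSP70, had 89.5, 87.8 and 89.8 CPM against 74.8, 109 and 46.1 CPM, a log2 change of -0.22 ± 0.31. Its treated libraries 1 and 3 were below every control and library 2 was above them.

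**Figure D2:**
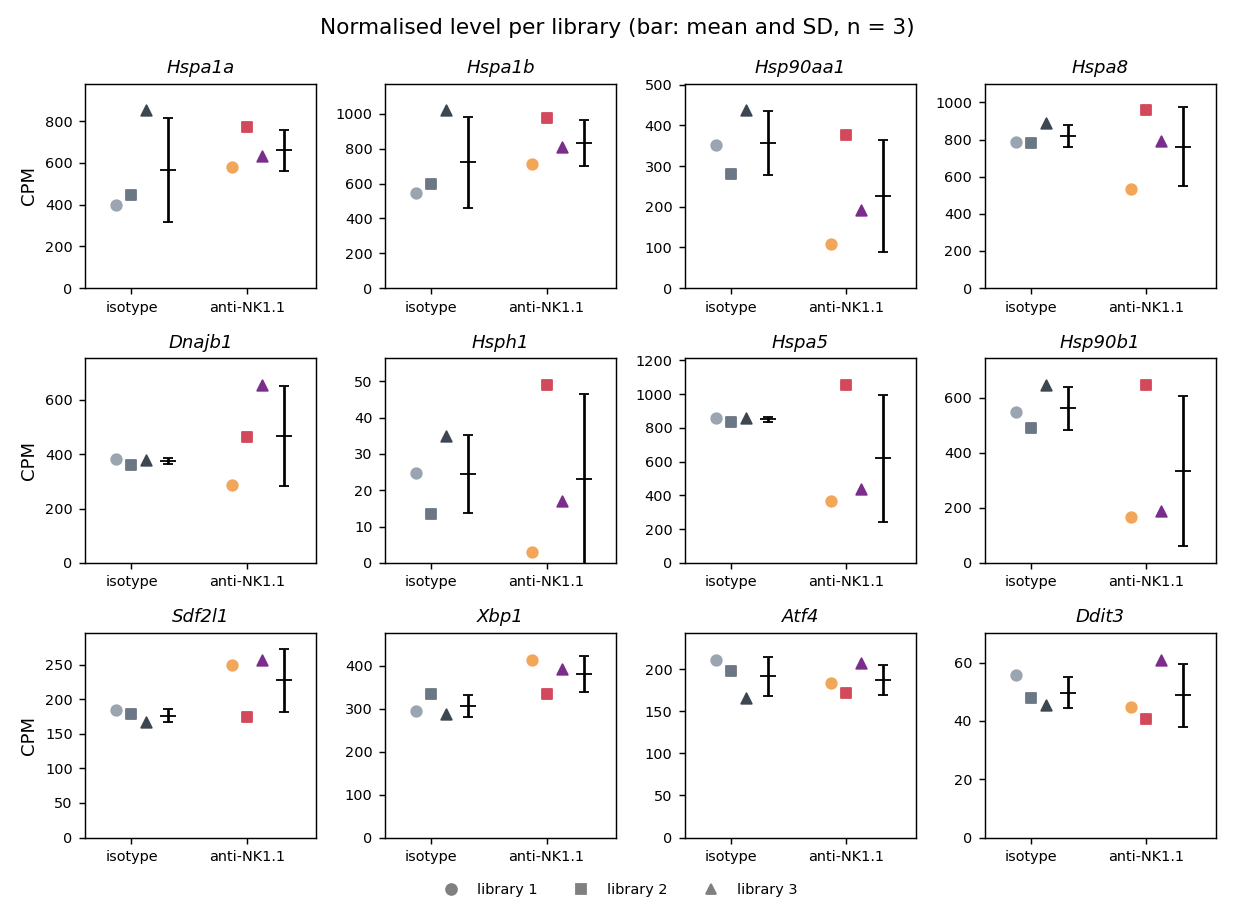
Normalised level (CPM, y axis from 0) of 12 genes in each library, with circles, squares and triangles for libraries 1, 2 and 3 of a group and a bar for mean and SD (n = 3); the SD bar of Hsph1 reaches below 0 and is not drawn there. Hspa5 and Hsp90b1 have anti-NK1.1 libraries 1 and 3 far below the controls and library 2 at or above them, and Sdf2l1 and Xbp1 have libraries 1 and 3 above the controls.

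Among ER chaperones, the large and abundant ones had low values in the same pair of libraries. Hspa5, which encodes BiP, the main ER HSP70 and the partner that holds the stress sensors inactive (chromosome 2, 34771970 to 34777547), had 860, 833 and 857 CPM in isotype and 369, 1054 and 436 CPM in the anti-NK1.1 group. The controls were nearly equal (850 ± 14.9 CPM, SD, n = 3), libraries 1 and 3 of the treated group were far below them, and library 2 exceeded them. The log2 change was -0.46 ± 0.36 (edgeR adjusted p = 0.782). Hsp90b1, the ER HSP90 called GRP94 that folds Toll-like receptors and integrins (chromosome 10, 86690209 to 86705509), had 548, 490 and 645 CPM against 165, 646 and 189 CPM. Library 2 lay with the highest control and the other 2 were below every control, giving giving -0.75 ± 0.47 on the log2 scale (edgeR's quasi-likelihood test, adjusted p = 0.748).

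Without anti-NK1.1 library 2, edgeR called 3 of the 40 genes over all genes, Hsp90b1 (-1.67 ± 0.22, adjusted p = 0.0379), Sel1l (-1.64 ± 0.26, adjusted p = 0.0384) and Hspa5 (-1.08 ± 0.19, adjusted p = 0.0462), where 0.95% of all tested genes were called and 0.854% were called lower. With anti-NK1.1 library 2 as the only treated library, the same genes had log2 changes of 0.21, 0.28 and 0.32. Sel1l, a scaffold of the complex that removes misfolded ER proteins (chromosome 12, 91806043 to 91849157), had 87.1, 77.0 and 95.4 CPM against 28.6, 105 and 27.0 CPM. The direction of these genes thus depended on which treated library was read. When length and GC content were corrected for, leaving library 2 out called 0 of the 40 genes by edgeR, with log2 changes of -1.22 for Hsp90b1 (adjusted p = 0.0643), -1.29 for Sel1l (adjusted p = 0.0793) and -0.61 for Hspa5 (adjusted p = 0.171).

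Dnajc3, an ER co-chaperone of BiP that also inhibits PERK, had 95.7, 123 and 112 CPM against 39.5, 140 and 51.8 CPM, a log2 change of -0.51 ± 0.43. Canx, the membrane lectin calnexin, had a log2 change of -0.34 ± 0.29, and Calr, its soluble counterpart calreticulin, of 0.01 ± 0.19. Hyou1, an ER HSP110, was low and uneven, with 6.39, 11.1 and 30.2 CPM against 10.3, 12.6 and 5.78 CPM. Its log2 change of -0.74 ± 0.61 became 0.12 without isotype library 3.

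Of the ER chaperones with shorter transcripts, Dnajb11, Sdf2l1 and Dnajb9 had positive changes, while Calr (2184 nt) had one near 0. Sdf2l1 had a negative change with the length correction given further on. Dnajb11, a BiP co-chaperone (chromosome 16, 22857845 to 22879634), had 95.0, 133 and 118 CPM in isotype and 166, 136 and 162 CPM in the anti-NK1.1 group. Every treated library was above every control, with means of 115 ± 19.2 and 155 ± 16.6 CPM (SD, n = 3 each) and giving 0.42 ± 0.23 on the log2 scale (edgeR's quasi-likelihood test, adjusted p = 0.743), although isotype 2 and anti-NK1.1 2 were close to each other. Sdf2l1, a partner of BiP that keeps clients from aggregating (chromosome 16, 17130138 to 17132383), had 184, 179 and 166 CPM against 250, 174 and 257 CPM, a log2 change of 0.36 ± 0.22. Here libraries 1 and 3 were above every control and library 2 within them. Dnajb9, which restrains IRE1, had a log2 change of 0.10 ± 0.25.

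The secreted ER stress proteins were likewise higher in part of the treated group. Manf, a protein released on ER stress that protects cells (chromosome 9, 106838312 to 106891979), had 221, 197 and 160 CPM against 277, 208 and 257 CPM, a log2 change of 0.36 ± 0.22. Creld2 had 88.6, 74.2 and 74.5 CPM against 80.3, 100 and 114 CPM, a log2 change of 0.31 ± 0.23. Neither gene passed edgeR's quasi-likelihood test over all genes (adjusted p = 0.748 for Manf and 0.777 for Creld2). The count ratio of Manf to Hsp90b1 was 0.404, 0.402 and 0.248 in isotype and 1.68, 0.322 and 1.36 in anti-NK1.1 libraries. An exact two-sided permutation test gave p = 0.3, and 0.5 adjusted over the 4 ratios. The count ratio of Sdf2l1 to Hspa5 was 0.214, 0.215 and 0.194 in isotype and 0.677, 0.165 and 0.589 in anti-NK1.1 libraries. It was above the controls in libraries 1 and 3 and below them in library 2 (exact two-sided permutation p = 0.4, adjusted over the 4 ratios 0.5). These counts were not corrected for length, and the transcripts have 1108 nt (Sdf2l1) and 3672 nt (Hspa5). With the length and GC correction given further on, Sdf2l1 had 199, 187 and 234 CPM against 180, 214 and 181 CPM. Hspa5 then had 791, 779 and 721 CPM against 471, 939 and 529 CPM. The part of length in the ratio was not tested.

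The disulfide isomerases form and reshuffle disulfide bonds, and 2 of the 3, Pdia3 and Pdia4, had libraries 1 and 3 of the treated group below every control. Pdia3 had a log2 change of -0.04 ± 0.20, Pdia4 of -0.33 ± 0.25 and Pdia6 of 0.15 ± 0.20. For Pdia3, one of the 3 most abundant of the 40 genes per kilobase, the isotype libraries had 932, 995 and 963 CPM and the anti-NK1.1 libraries 825, 1132 and 858 CPM. Of the degradation genes other than Sel1l, Herpud1, a ubiquitin-like membrane protein, had a log2 change of 0.23 ± 0.22 and Edem1, a lectin for misfolded glycoproteins, of -0.35 ± 0.25.

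The sensors of the unfolded protein response were scarce and all had negative changes. Atf6 (chromosome 1, 170704674 to 170867771) had 35.7, 25.1 and 21.6 CPM in isotype and 8.58, 22.4 and 12.99 CPM in the treated group, giving -0.90 ± 0.43 on the log2 scale (edgeR's quasi-likelihood test, adjusted p = 0.743). Library 2 was inside the control range and the other 2 were below it. Eif2ak3 (chromosome 6, 70844515 to 70905245) had 21.7, 18.9 and 25.6 CPM against 16.4, 19.6 and 5.58 CPM, a log2 change of -0.67 ± 0.48. Ern1 (chromosome 11, 106394650 to 106487852) had 5.86, 1.46 and 8.73 CPM against 1.96, 1.08 and 4.86 CPM, a log2 change of -1.02 ± 0.90. Ern1 libraries overlapped widely, with isotype 2 below anti-NK1.1 1 and 3, and its transcript, with those of Atf6 and Sel1l, is among the 3 longest of the ER genes.

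Of the transcription factors below the sensors, Xbp1 was above every control in anti-NK1.1 libraries 1 and 3. Atf4 and Ddit3 had changes near 0 with TMM scaling, but more negative ones with the length correction given further on. Xbp1 (chromosome 11, 5520659 to 5525893) had 295, 335 and 288 CPM against 414, 334 and 393 CPM, giving 0.31 ± 0.20 on the log2 scale (edgeR's quasi-likelihood test, adjusted p = 0.748). Atf4 (chromosome 15, 80255184 to 80257541) had 211, 198 and 165 CPM against 183, 172 and 207 CPM, a log2 change of -0.03 ± 0.21. Ddit3, which encodes the pro-apoptotic factor CHOP (chromosome 10, 127290774 to 127296288), had 55.6, 47.7 and 45.4 CPM against 44.8, 40.6 and 60.9 CPM, a log2 change of -0.02 ± 0.27. With TMM scaling the groups of Atf4 and Ddit3 overlapped, and Ddit3 shares 68 exon bases with Mars on the opposite strand. Xbp1 and ER chaperones are abundant in antibody-secreting cells. The 9 markers of B and plasma cells in the table summed to 233 to 277 CPM in isotype and 306 to 446 CPM in anti-NK1.1 libraries. Of them, 7 had log2 changes above 0 and 2 below. Jchain led, at 117 to 141 CPM and 123 to 267 CPM, and Sdc1 stayed at 2.1 to 8.9 CPM. Prdm1 went the other way, with 7.89, 8.19 and 26.6 CPM in isotype and 8.05, 7.15 and 2.59 CPM in anti-NK1.1 libraries. The part of B and plasma cells in the Xbp1, Sdf2l1 and Manf values was not tested.

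**Figure D3:**
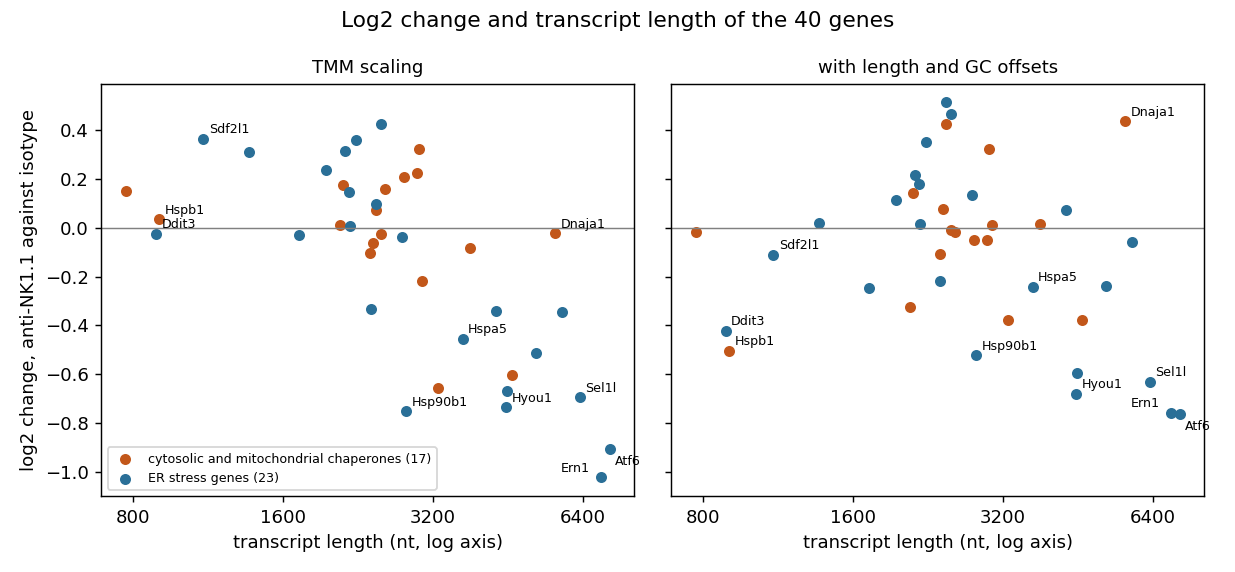
Log2 change (y axis) of the 40 genes against transcript length (x axis, nt, log axis), with TMM scaling on the left and with offsets for length and GC content on the right; each point is a gene, orange for cytosolic and mitochondrial and blue for ER genes. On the left the ER genes run from 0.42 for Dnajb11 to -1.02 for Ern1, and Sdf2l1 is at 0.36 on the left and -0.11 on the right.

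Transcript length, which the choice of genes did not use, went with these changes. Across the 40 genes the rank correlation of log2 change with transcript length was -0.66, and it was -0.80 over the 23 ER genes and -0.32 over the 17 others, against -0.22 over 14391 tested genes with a length. The points share the same 6 libraries, so these values describe the libraries and carry no test. By treated library, the correlation of the ER genes with length was -0.74 in library 1, -0.16 in library 2 and -0.70 in library 3. Of the 20 shorter transcripts (774 to 2520 nt), 6 had negative changes with a median of 0.09, and of the 20 longer ones (2562 to 7246 nt), 16 had negative changes with a median of -0.40.

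Genes with the ER stress response element had log2 changes on both sides of 0, none of them called. Its 7 carriers, from the shortest transcript to the longest, had log2 changes of 0.31 for Creld2, 0.15 for Pdia6, 0.01 for Calr, -0.75 for Hsp90b1, -0.46 for Hspa5, -0.34 for Canx and -0.51 for Dnajc3. Thus 3 were above 0 and 4 below, and none passed edgeR's test (adjusted p 0.748 to 0.996). These signs are uncertain, and that of Canx turned with correction for length and GC content (0.07).

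With each library corrected for length and GC content, 13 of the 40 log2 changes turned sign and none passed edgeR's test (adjusted p 0.603 to 0.996). The changes of Hspa5, Hsp90b1 and Sel1l were then -0.24 ± 0.26, -0.52 ± 0.38 and -0.63 ± 0.38, and those of Hsp90aa1 and Dnajc3 were -0.38 ± 0.29 and -0.24 ± 0.31. Sdf2l1 went from 0.36 to -0.11, while Dnajb11 (0.47 ± 0.19) and Manf (0.35 ± 0.19) kept their values. Creld2 went from 0.31 to 0.02, Herpud1 from 0.23 to 0.11 and Xbp1 from 0.31 to 0.22. Atf6 (-0.76 ± 0.39) and Ern1 (-0.76 ± 0.91) stayed negative. Atf4 went from -0.03 to -0.25 ± 0.17 and Ddit3 from -0.02 to -0.42 ± 0.25. The list of genes with anti-NK1.1 libraries 1 and 3 both below the isotype range also changed. Hspa9, Calr, Canx, Pdia3, Pdia4, Edem1 and Atf6 left it, and Hspb1, Sdf2l1, Atf4 and Ddit3 joined it. The share of all tested genes with this pattern after correction was not computed. The correction also removes any biological difference that follows length.

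**Figure D4:**
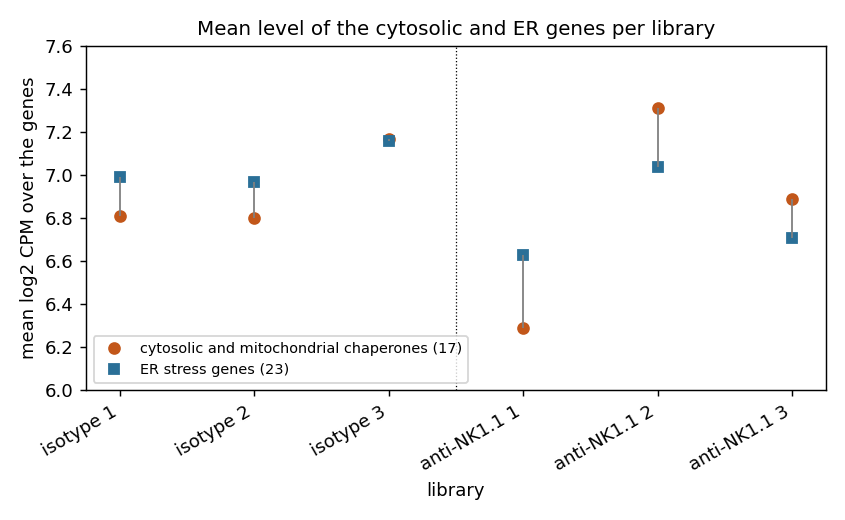
Mean log2 CPM (y axis) of the 17 cytosolic and mitochondrial genes (orange circles) and the 23 ER genes (blue squares) in each library (x axis), joined by a line. Anti-NK1.1 library 1 has the lowest mean of both sets, and anti-NK1.1 library 2 has the highest mean of the cytosolic and mitochondrial set.

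Set against each other within a library, the cytosolic and mitochondrial genes had a mean log2 CPM of 6.81, 6.80 and 7.17 in isotype and 6.29, 7.31 and 6.89 in anti-NK1.1 libraries. The ER genes had 6.99, 6.97 and 7.16 against 6.63, 7.04 and 6.71. The difference, cytosolic minus ER, was -0.18, -0.17 and 0.01 in isotype and -0.35, 0.26 and 0.18 in anti-NK1.1 libraries. The treated libraries thus spanned the controls, with library 1 lowest and libraries 2 and 3 above them. The ER set was below all controls in libraries 1 and 3 and inside their range in library 2.

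Per kilobase of transcript, the most abundant of the 40 genes in isotype libraries were Pdia3 (348 CPM per kilobase), Hspa8 (342) and Calr (342), and the scarcest were Ern1 (0.77), Hyou1 (3.54) and Atf6 (3.79). The top 5 ranks held the same 5 genes in both groups, with Hsp90ab1 and Hspa1b as the others. Hspa5 went from the 6th to the 10th rank and Hsp90b1 from the 7th to the 14th, whereas Sdf2l1 went from the 10th to the 8th and Xbp1 from the 11th to the 9th. These ranks rest on group means. In anti-NK1.1 library 2, Hspa5 (1054 CPM) and Hsp90b1 (646 CPM) were not below any control.

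The wider folding and stress pathways were read from 3 lists. Of 125 tested genes beyond the 40, 0 passed edgeR's test over all genes and 5 had an unadjusted p under 0.05, of which 2 were higher and 3 lower, against 2.74% and 3.80% of all tested genes in those directions. Their median log2 change was -0.09, and 30 of the 125 (24%) had anti-NK1.1 libraries 1 and 3 below the isotype range, against 20.3% of all tested genes. The groups did not overlap for 18 of the 125, where 15.3% of all tested genes had groups that did not overlap. Among 42 other ER folding genes, Ppib, the short ER prolyl isomerase (892 nt), had 399, 375 and 294 CPM against 559, 442 and 540 CPM, a log2 change of 0.53 ± 0.21. Spcs3, a subunit of the signal peptidase (3466 nt), had 139, 148 and 169 CPM against 96.6, 133 and 73.4 CPM, a log2 change of -0.59 ± 0.26. The groups did not overlap for either gene.

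Among 33 other genes of unfolded protein response signalling, Mbtps2, the protease that releases ATF6 in the Golgi, had 23.6, 11.6 and 10.1 CPM against 5.38, 8.002 and 4.50 CPM, a log2 change of -1.34 ± 0.52. Creb3, an ER-bound transcription factor, had 115, 112 and 119 CPM against 203, 133 and 167 CPM, a log2 change of 0.54 ± 0.23. Cebpb, a transcription factor of the CHOP family, had 782, 888 and 951 CPM against 1206, 752 and 2859 CPM, with its highest value in anti-NK1.1 library 3, the library richest in neutrophil markers, and the part of those cells was not tested. Among 50 other cytosolic folding genes, Dnajc5, a synaptic vesicle J-domain protein, had 65.4, 75.0 and 96.4 CPM against 43.3, 64.2 and 44.0 CPM, a log2 change of -0.64 ± 0.27.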

How the data were processed

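The rule for the members uses no measured value, but members and gene lists were chosen with earlier results of these data known. Microglia from 6 samples (3 isotype, 3 anti-NK1.1) were sequenced as SMART-seq v4 and Nextera XT libraries, per the labels' protocols. The deposited values are read counts per gene: although described as normalized, they are whole numbers with different totals per library. STAR 2.5.3a, Cufflinks 2.0 and DESeq2 1.1 and the build mm10 are named, per the submitters' processing notes. How reads were counted, with which annotation and whether by strand, is not given in any of the sources used here. Another 26 rows that held a calendar date were left out, and reads in no feature (53.3% to 57.4%) stayed out of library sizes.

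Counts were filtered with filterByExpr, leaving 14520 genes, scaled by TMM and compared in edgeR 4.0.16 (R 4.3.3, quasi-likelihood F test, two-sided). Adjustment was by Benjamini-Hochberg across the 14520 genes, at a threshold of 0.05. The SE is the absolute log2 change divided by the square root of F. The common biological coefficient of variation was 0.64. No molecular identifiers were used, so precision rests on depth (26.9 M to 36.1 M counts) and 3 libraries per group. The pairs of libraries all differed by more than sampling noise.

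Lengths and GC content of transcripts were read from the GENCODE annotation of GRCm38 for 99.1% of tested genes, from the longest principal transcript. The correction took each library's trend in log2 CPM by splines with 5 degrees of freedom as offsets. Alternatives were other scalings, filters and tests (DESeq2 1.42.0, limma 3.58.1), a replicate block, the correction and leaving out libraries. All 40 genes are named by rule, with values in every library for 16 genes chosen as key members, and for any other with an unadjusted p under 0.05 or groups that did not overlap; values in every library of further members were added after they were seen. From each wider list up to 5 genes of smallest p could be named. The 4 count ratios were not among the planned results and were not corrected for length.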

Additional observations from a re-analysis of the deposited data

How the results depend on the processing

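Of the 40 genes, none passed over all genes under the other scalings, filters, tests, the replicate block or the length and GC correction, and 3 did when anti-NK1.1 2 was left out. DESeq2 called 83 genes in all and edgeR 0. Leaving out 1 library gave 0 to 138 called genes and 0 to 3 of the 40, with both maxima without anti-NK1.1 2. With the correction and without anti-NK1.1 2, edgeR called 1 gene, and the ER median was -0.22 instead of -0.04; the cause was not tested. Same-numbered libraries of the groups did not deviate together (r of 0.053, 0.030 and -0.004), and not every library correlated best with its own number, so the numbers were not taken as pairs. The replicate block left 0 calls over all genes and moved the ER median to -0.05. Depth limits the scarcest genes most, with 37 reads the lowest count of the 40 genes in a library. Signs of single genes turned as follows, including larger changes such as those of Hsp90b1 and Sel1l. With anti-NK1.1 2 as the only treated library, the sign turned for Hsp90aa1 (0.084), Hsp90ab1 (0.44), Hspa4 (0.049), Hspa8 (0.23), Hsph1 (1.01), Dnaja1 (0.35), Hspa9 (0.29), Hspd1 (0.34), Hsf1 (-0.030), Hspa5 (0.32), Hsp90b1 (0.21), Sdf2l1 (-0.011), Dnajb9 (-0.091), Dnajc3 (0.35), Canx (0.15), Pdia3 (0.24), Pdia4 (0.021) and Sel1l (0.28). With upper-quartile factors, the sign turned for Hsp90ab1 (0.047), Dnaja1 (0.046), Hspd1 (0.012), Pdia3 (0.039), Atf4 (0.053) and Ddit3 (0.059). With the length and GC correction, the sign turned for Hspa1a (-0.049), Hspa1b (-0.051), Hsph1 (0.015), Dnaja1 (0.44), Hspb1 (-0.50), Bag3 (-0.018), Hspa9 (0.012), Hspd1 (0.075), Hspe1 (-0.018), Hsf1 (-0.32), Sdf2l1 (-0.11), Canx (0.071) and Pdia3 (0.13). With the replicate block and the correction together, the sign turned for Hspa1a (-0.021), Hspa1b (-0.044), Dnaja1 (0.38), Hspb1 (-0.71), Bag3 (-0.021), Hspd1 (0.053), Hspe1 (-0.031), Hsf1 (-0.29), Sdf2l1 (-0.11), Canx (0.082), Pdia3 (0.13) and Creld2 (-0.015). With the correction and without anti-NK1.1 2, the sign turned for Hspa1a (-0.29), Hspa1b (-0.31), Dnaja1 (0.47), Hspb1 (-1.06), Bag3 (-0.30), Stip1 (-0.27), Hspe1 (-0.18), Hsf1 (-0.49), Sdf2l1 (-0.20), Calr (-0.11), Canx (0.015), Pdia3 (0.063), Creld2 (-0.22), Herpud1 (-0.007) and Edem1 (0.035). With the replicate block alone, the sign turned for Dnajb4 (-0.011) and Hspb1 (-0.043). With limma voom, the sign turned for Hspb1 (-0.049). With DESeq2 size factors or the DESeq2 test, the sign turned for Ddit3 (0.005). Leaving out 1 library at a time turned signs for Hsp90ab1 (-0.32 to 0.19), Hspa8 (-0.30 to 0.094), Hsph1 (-1.29 to 0.44), Dnaja1 (-0.25 to 0.24), Dnajb4 (-0.30 to 0.34), Hspb1 (-0.23 to 0.33), Bag3 (-0.11 to 0.45), Stip1 (-0.17 to 0.33), Hspa9 (-0.56 to 0.043), Hspd1 (-0.31 to 0.067), Hspe1 (-0.004 to 0.42), Hsf1 (-0.20 to 0.18), Hyou1 (-1.10 to 0.12), Calr (-0.092 to 0.063), Pdia3 (-0.20 to 0.047), Atf4 (-0.12 to 0.064) and Ddit3 (-0.22 to 0.092).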
